A study of Mus musculus with 12 samples.

Results

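The genes described here are the adult hemoglobin genes Hba-a1, Hba-a2, Hbb-bs and Hbb-bt and Alas2, which codes for the heme synthesis enzyme of red cell precursors. They were chosen by name, as the rows of the count table whose Ensembl identifiers map to these symbols, and all 5 were found among its 27022 genes. The list was drawn up with earlier results of these data known, so the diet and kit differences below are descriptions, and an adjusted p-value says only where a gene falls in the fit over all genes.

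The study compared 2 library kits on the same liver RNA, the whole transcript KAPA Stranded mRNA-Seq kit (Trad-KAPA) and the QuantSeq 3' kit of Lexogen (3'-LEXO), which primes at the poly(A) tail. RNA came from the large lobe of the liver of 6 female SJL/J mice aged 11 weeks. The control mice, 3 in number, ate an AIN-93G diet with 50 ppm iron, and the 3 iron-loaded mice were moved from it, at 6 weeks of age, to an AIN-93G diet with 2% carbonyl iron. All 6 were fasted and bled from the eye, and cold saline was then flushed through the heart to clear blood from the tissues. Since a diet was fed to the mice of 1 cage, an effect of the cage and an effect of the diet cannot be told apart. The numbers 1 to 3 name the same mouse in both kits.

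The totals ranged from 13834682 to 16553616 counts in the Trad-KAPA libraries and from 10724672 to 14104236 in the 3'-LEXO libraries. Of the hepatocyte marker list, 10 of 10 genes had reads in both kits, and together they made 145841 to 180744 CPM in Trad-KAPA, where CPM are a gene's counts scaled to the same total in every library. Iron-loaded mouse 1 stood apart from the other two iron-loaded mice. Over 9311 genes, the deviations of its Trad-KAPA library from the group mean had r = -0.61 and r = -0.69 with those of iron-loaded mice 2 and 3 in 3'-LEXO, while iron-loaded mice 2 and 3 had r = 0.62 with each other.

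Adult hemoglobin is built of 2 alpha and 2 beta chains, each holding a heme with an iron atom. Red cell precursors make nearly all of it, and reticulocytes, the young red cells released to the blood, still carry globin RNA although they have lost their nucleus. In adult liver such RNA can come from blood cells within the vessels or from erythroid precursors, and bulk RNA cannot tell fewer such cells from less RNA per cell. Alas2 starts heme synthesis in these cells, whereas hepatocytes and most other cells use its relative Alas1.

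The alpha genes lie on chromosome 11 of GRCm38, plus strand, Hba-a1 (ENSMUSG00000069919) from 32283511 to 32284465 and Hba-a2 (ENSMUSG00000069917) from 32296489 to 32297298. The beta genes lie on chromosome 7, minus strand, Hbb-bs (ENSMUSG00000052305) from 103826534 to 103828096 and Hbb-bt (ENSMUSG00000073940) from 103812524 to 103813996. Alas2 (ENSMUSG00000025270) lies on the X chromosome, plus strand, from 150547375 to 150570638. The 5 genes are annotated as protein coding in GENCODE M21, and their merged exons cover 812, 667, 768, 703 and 2403 bp in the order Hba-a1, Hba-a2, Hbb-bs, Hbb-bt and Alas2.

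Within a pair the globin genes are nearly copies of each other, which bears on every count below because only reads mapped to a single place were counted. The coding parts of Hba-a1 and Hba-a2, 429 bases each, differ in the reference at 1 base, C381T, with positions counted from the A of the start codon and the Hba-a1 base first. The coding parts of Hbb-bs and Hbb-bt, 444 bases each, also differ at 1 base, C417T, with the Hbb-bs base first. Whether the SJL/J mice carry these bases of the reference was not checked. The stretches around these bases are shown, read 5′ to 3′ on the coding strand, with the differing base in capitals; they lie at chr11:32284313-32284373, chr11:32297130-32297190, chr7:103826665-103826722 and chr7:103812656-103812713 of GRCm38.
Hba-a1: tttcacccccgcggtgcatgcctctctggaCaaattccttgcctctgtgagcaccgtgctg
Hba-a2: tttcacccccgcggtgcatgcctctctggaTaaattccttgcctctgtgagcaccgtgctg
Hbb-bs: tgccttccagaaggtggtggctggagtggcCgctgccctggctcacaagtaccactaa
Hbb-bt: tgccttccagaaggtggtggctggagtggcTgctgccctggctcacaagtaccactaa

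To see where a read could be assigned, each transcript was cut into all stretches of 50 bases, the read length, and a stretch was called own if no other gene of GENCODE M21 held it on either strand. Of the Hba-a1 stretches 211 of 650 were own, and of those of Hba-a2 66 of 505. Only annotated transcripts were searched, while the reads were mapped to the genome. The Hba-a1 transcript has 196 bases before its coding part and that of Hba-a2 35. The longer Hba-a1 leader reaches into the bases before the RefSeq start, where the alpha genes were 97.6% identical. Own stretches there may thus not be unique in the genome. In the beta genes 198 of 579 stretches of Hbb-bs and 273 of 654 of Hbb-bt were own. In the last 300 bases, where 3' reads gather, the own stretches were 50 of 251 in Hba-a1, 66 of 251 in Hba-a2, 159 of 251 in Hbb-bs and 160 of 251 in Hbb-bt. The beta pair can thus be told apart over more of its 3' end than the alpha pair. After the coding part, Hbb-bs and Hbb-bt were identical at 95 of 135 aligned bases, 70.4%. Hba-a1 and Hba-a2 were identical at 74 of 90, and 74 is the whole length of the Hba-a1 part, against 90 bases in Hba-a2. The alpha genes thus differed there only in annotated length. Alas2 had 1713 own stretches of 1988, but none of the 251 in its last 300 bases, because the gene Apex2 on the opposite strand covers that end. On the sense strand alone, all 1988 were own. Whether the counting used the strand is not given in the sources used here, so the 3'-LEXO count of Alas2 is uncertain, and without strand its reads there could not be told from those of Apex2.

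**Figure D1:**
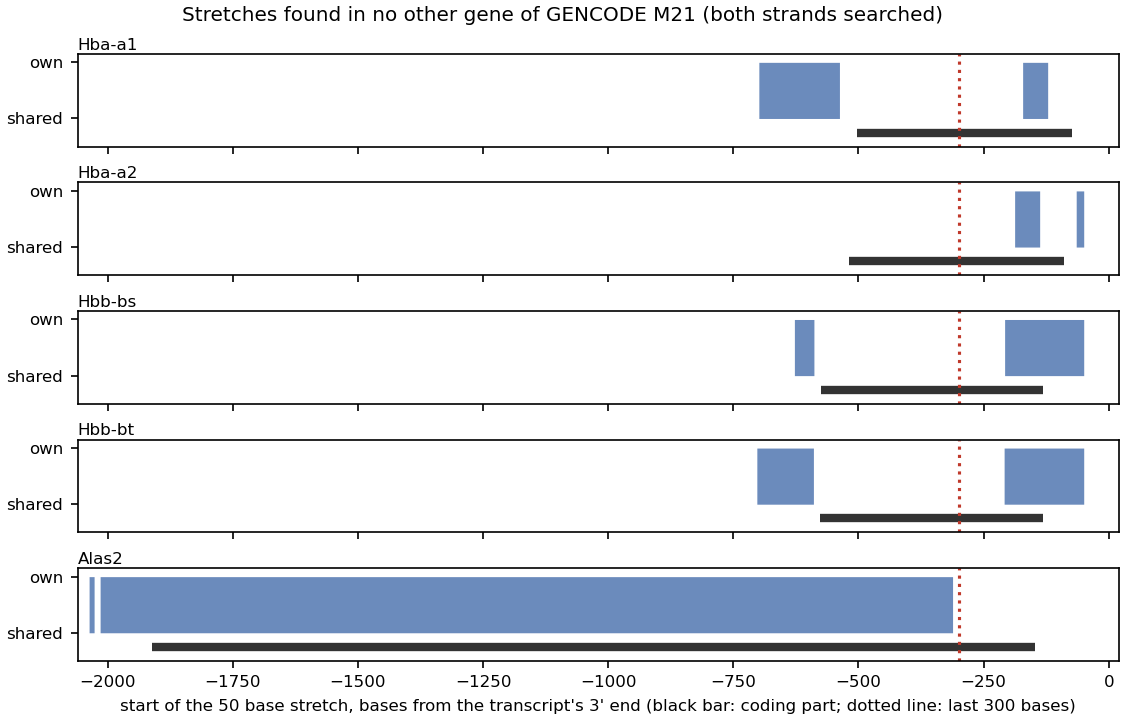
Each row is 1 transcript aligned at its 3' end, with the start of every 50 base stretch in bases from that end on the x axis. Blue marks stretches held by no annotated transcript of another gene, the black bar is the coding part and the dotted line is 300 bases from the end. Hbb-bs and Hbb-bt have own stretches at both ends, Hba-a1 at its 5' end and around the 1 differing base, Hba-a2 around that base and in a short piece after the coding part, and in Alas2 they fill nearly all of the transcript except its last 300 bases.

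Alas2 also carries an iron-responsive element in its leader, the stem-loop to which iron regulatory proteins bind when iron is scarce and thereby hold back translation. It is shown because it ties this member to iron at the level of translation, which read counts do not measure. It lies at chrX:150547459-150547485 of GRCm38, plus strand, and its 6-base loop, in capitals, starts at base 96 of the transcript, 31 bases before the start codon.
Alas2 leader: tggttcgtcctCAGTGCagggcaacag

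The promoters of 3 members, Hba-a1, Hbb-bs and Alas2, are shown as a description, with no test of their part in the levels. They come from RefSeq (GRCm38.p6), in which 5 of 5 members were found, and run from 120 to 11 bases before the RefSeq start, which lies downstream of the GENCODE start in all 5. Capitals mark 4 short motifs searched on either strand, whose matches may overlap. The TATA box was searched as TATAA. The CCAAT box was searched by the letters of its name. The CACC box, the kind of site that KLF1 binds, was searched as CCNCNCCC. The GATA site was searched as GATAA. The first is chr11:32283552-32283661, plus strand, the second chr7:103827939-103828048, minus strand, and the third chrX:150547297-150547406, plus strand.
Hba-a1: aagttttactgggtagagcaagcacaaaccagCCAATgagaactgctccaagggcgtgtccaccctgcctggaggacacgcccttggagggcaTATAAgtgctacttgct
Hbb-bs: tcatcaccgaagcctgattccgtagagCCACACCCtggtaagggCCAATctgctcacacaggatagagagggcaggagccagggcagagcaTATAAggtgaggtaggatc
Alas2: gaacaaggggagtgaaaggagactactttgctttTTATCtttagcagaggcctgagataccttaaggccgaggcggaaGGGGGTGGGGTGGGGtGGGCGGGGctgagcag

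In the 250 bases before the start, TATAA was found in 5 of 5 members against 22.8% of the 32851 RefSeq promoters, and GATAA in 5 of 5 against 22.6%. CCAAT was found in 4 of 5 members, all but Alas2, against 33.8% of promoters, and the CACC letters in 3 of 5, Hbb-bs, Hbb-bt and Alas2, against 45.9%. The 4 globin genes each had a TATAA 27 to 30 bases before the start, whereas those of Alas2 lay 207 and 208 bases before it. The promoters of Hba-a1 and Hba-a2 were 97.6% identical and those of Hbb-bs and Hbb-bt 70.0%. Such matches describe the letters only.

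Globin reads were a small part of every library. The 4 globin genes together took 0.00140% to 0.0140% of the counts in Trad-KAPA and 0.0115% to 0.120% in 3'-LEXO. In both kits control mouse 3 had the most and iron-loaded mouse 1 the least.

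Hba-a1, the alpha chain gene that took nearly all alpha reads, had 3.99, 18.5 and 43.9 CPM in control mice 1, 2 and 3 in Trad-KAPA and 3.78, 4.85 and 6.90 CPM in iron-loaded mice 1, 2 and 3. In 3'-LEXO it had 50.4, 96.3 and 379 CPM in the control mice and 37.6, 54.1 and 56.0 CPM in the iron-loaded mice. Control mouse 1 lay within the iron-loaded range in both kits, control mouse 2 stood above it and control mouse 3 far above it. Among the control mice the highest level was 11.0 times the lowest in Trad-KAPA, while among the iron-loaded mice it was 1.82 times the lowest.

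Hbb-bs, one of the adult beta chain genes, had 9.73, 31.3 and 78.0 CPM in the control mice and 7.93, 14.2 and 14.2 CPM in the iron-loaded mice in Trad-KAPA. In 3'-LEXO the values were 63.9, 187 and 500.1 CPM against 44.5, 91.9 and 73.1 CPM. Again control mice 2 and 3 lay above every iron-loaded mouse and control mouse 1 among them.

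Hbb-bt, its partner in the locus, followed the same course at a lower level in Trad-KAPA, with 2.66, 9.11 and 18.1 CPM in the control mice and 2.28, 2.87 and 3.16 CPM in the iron-loaded mice. In 3'-LEXO it had 40.7, 126 and 318.0 CPM against 33.1, 56.7 and 48.9 CPM. The groups overlapped through control mouse 1 alone, which was second lowest of the 6 mice in both kits.

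Alas2, the enzyme of the first step of erythroid heme synthesis, had 3.26, 7.90 and 11.3 CPM in the control mice and 2.36, 4.24 and 4.53 CPM in the iron-loaded mice in Trad-KAPA. In 3'-LEXO it had 3.86, 7.08 and 17.3 CPM against 4.29, 5.31 and 4.36 CPM. The order of the control mice was that of the globins, but the spread was narrower, at 3.46 times in Trad-KAPA and 4.48 times in 3'-LEXO.

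Hba-a2, the other alpha gene, was near 0 except in control mouse 1. It had 8, 0 and 0 counts in control mice 1, 2 and 3 and 0, 0 and 1 in the iron-loaded mice in Trad-KAPA, and 45, 7 and 3 counts against 0, 2 and 1 in 3'-LEXO. A count of up to 3 in a library is treated as at the floor, so 5 of the 6 Trad-KAPA libraries and 4 of the 6 3'-LEXO libraries held no more than the floor, and no fold change is given. Control mouse 1, whose other globins were the lowest of the control mice, thus had the most Hba-a2 reads in both kits.

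**Figure D2:**
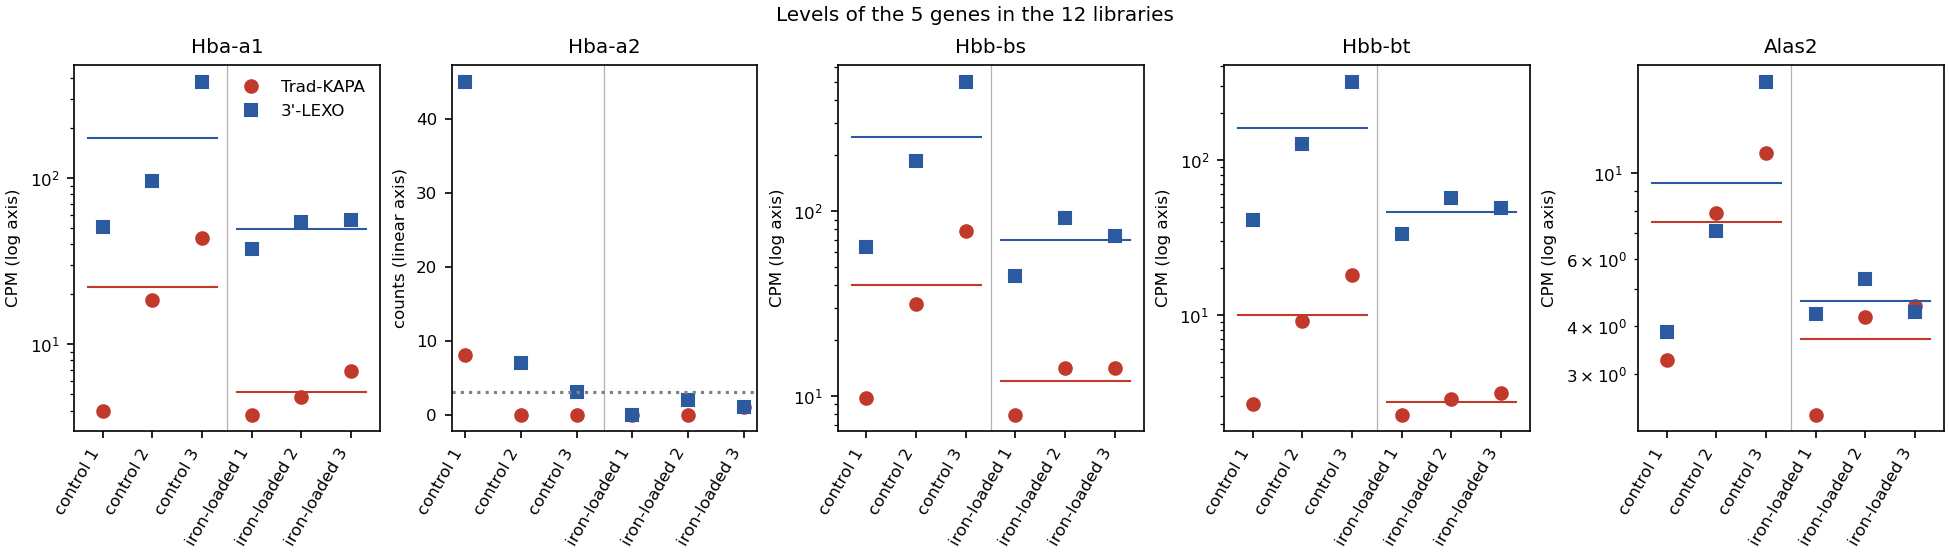
Each panel shows 1 gene in the 6 mice, with Trad-KAPA as red circles and 3'-LEXO as blue squares, in CPM on a log axis, and lines at the mean of the 3 mice of a diet; Hba-a2 is in counts on a linear axis with a dotted line at 3 counts. In the 4 genes shown in CPM, control mouse 3 is the highest in both kits and control mouse 1 lies among the iron-loaded mice or close to them, while Hba-a2 is highest in control mouse 1, at 8 and 45 counts.

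Levels of different genes can be compared only per length and only in Trad-KAPA. Per kb of merged exons, the control mice averaged 51.6 ± 45.4 CPM (SD, n = 3) for Hbb-bs, 27.2 ± 24.9 for Hba-a1, 14.1 ± 11.0 for Hbb-bt, 3.11 ± 1.67 for Alas2 and 0.242 ± 0.418 for Hba-a2. On the iron-loaded diet the averages were 15.8 ± 4.70 CPM per kb for Hbb-bs, 6.38 ± 1.95 for Hba-a1, 3.94 ± 0.635 for Hbb-bt and 1.54 ± 0.490 for Alas2. The ranges of neighbouring genes overlapped among the control mice and, on the iron-loaded diet, did not overlap down to Alas2. Within each of the 6 mice the order was the same, Hbb-bs, Hba-a1, Hbb-bt and Alas2, although the share of each transcript that can be counted differs between them.

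The design asks whether these levels differed between the diets. In edgeR's quasi-likelihood test over all genes, none of the 4 members that passed its filter on low counts was called at an adjusted p of 0.05 in either kit, against 17.1% of 13151 genes called in Trad-KAPA, 8.37% as lower on the iron-loaded diet, and 6.1% of 13301 in 3'-LEXO, 2.92% as lower. At an unadjusted p below 0.05 4 of 4 members were lower in both kits, against 16.8% of all genes as lower and 34.3% in either direction in Trad-KAPA. The shares in 3'-LEXO were 12% and 25%. DESeq2 called 0 of the 5 members it fitted in Trad-KAPA, against 2430 of 24466 genes, and 1 in 3'-LEXO, against 1321 of 23487. This 1 call was Hba-a2, whose 3'-LEXO counts were 45 in control mouse 1 and at most 7 in every other library. The median log2 fold change, iron-loaded over control, over the 4 members was -1.86 (Trad-KAPA) and -1.90 (3'-LEXO), against 0.016 and 0.013 over all genes tested.

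For Hba-a1 the log2 fold change was -2.18 (SE 0.73, edgeR adjusted p = 0.0719) in Trad-KAPA, that is 4.53-fold lower, and -1.92 (SE 0.62, adjusted p = 0.0922) in 3'-LEXO. Hbb-bs had -1.80 (SE 0.65, edgeR adjusted p = 0.0901) and -1.92 (SE 0.61, adjusted p = 0.0896), and Hbb-bt -1.92 (SE 0.61, adjusted p = 0.0618) and -1.88 (SE 0.59, adjusted p = 0.0857). Alas2 had the smallest difference, -1.08 (SE 0.45, edgeR adjusted p = 0.134) in Trad-KAPA and -1.09 (SE 0.47, adjusted p = 0.188) in 3'-LEXO, about 2.11-fold and 2.14-fold lower. None of these 4 members had all its iron-loaded libraries below all its control libraries, which 16.6% of the genes tested in Trad-KAPA and 12.8% in 3'-LEXO had. Hba-a2, which did not pass the filter of the edgeR fit, had this order in 3'-LEXO, at 3 counts or more against 2 or fewer.

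These differences were smallest without control mouse 3. Without its libraries the log2 fold changes were -1.15, -0.79, -1.11 and -0.62 for Hba-a1, Hbb-bs, Hbb-bt and Alas2 in Trad-KAPA. The 3'-LEXO values were -0.60, -0.86, -0.87 and -0.26 in the same order. Without control mouse 1, the low control mouse, they were -2.69, -2.27, -2.38 and -1.45 in Trad-KAPA, with 4 of 4 members called, and -2.37, -2.39, -2.35 and -1.48 in 3'-LEXO, with 2 of 4 called, Hbb-bs and Hbb-bt. These fits called 1105 of 13424 genes, 558 as lower, and 326 of 13584 genes, 180 as lower. The sign was negative for each of the 4 members with any 1 mouse left out.

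**Figure D3:**
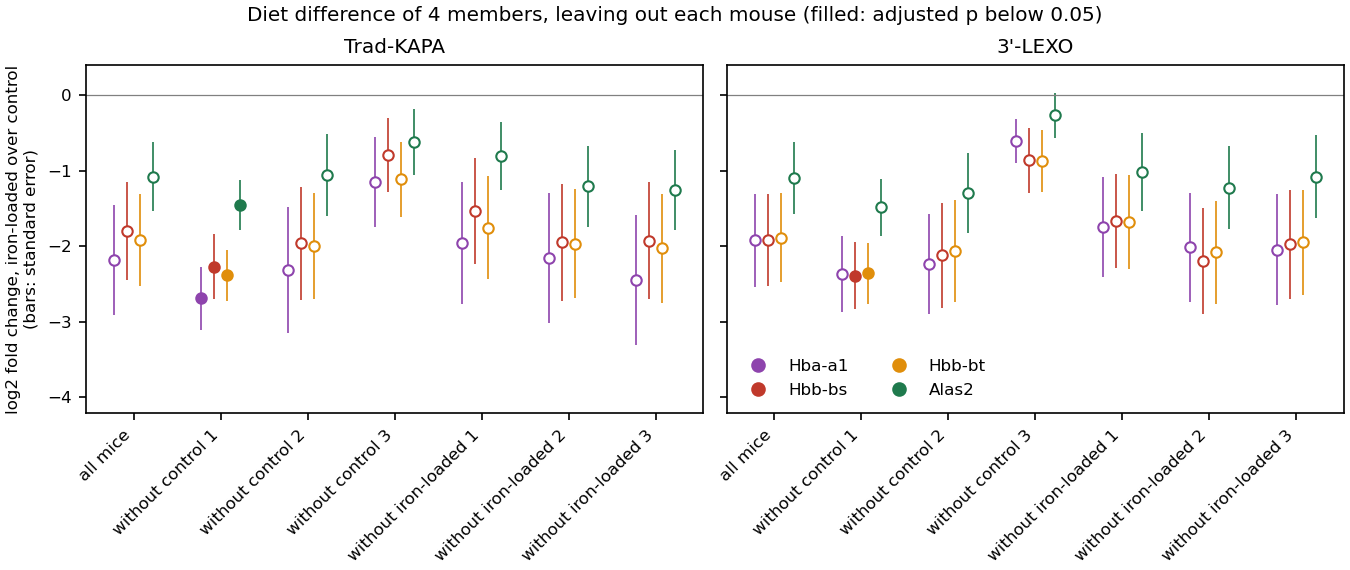
The log2 fold change of 4 members, iron-loaded over control, is drawn with its standard error with all mice and without each mouse in turn, Trad-KAPA on the left and 3'-LEXO on the right; filled points have an adjusted p below 0.05. The values are nearest to 0 without control mouse 3, between -1.15 and -0.26, and farthest from it without control mouse 1, between -2.69 and -1.45.

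Both kits read the same RNA, so that the differences between mice could be compared. Over the 6 mice, log2 CPM in Trad-KAPA and 3'-LEXO had Pearson's r = 0.955 for Hba-a1, 0.995 for Hbb-bs, 0.989 for Hbb-bt and 0.895 for Alas2 (exact permutation test, two-sided, adjusted over 4 genes, p = 0.00278, 0.00278, 0.0037 and 0.00694). Spearman's rho was 1 for Hba-a1 and Hbb-bs, 0.943 for Hbb-bt and 0.886 for Alas2 (exact permutation test, adjusted p = 0.00556, 0.00556, 0.0222 and 0.0333). Leaving out the 2 mice farthest from the median in Trad-KAPA, control mice 2 and 3 for the globins and control mouse 3 and iron-loaded mouse 1 for Alas2, gave r = 0.757, 0.939, 0.902 and 0.932. Both kits thus gave the mice the same order for Hba-a1 and Hbb-bs, and r fell most, for Hba-a1, once the high control mice were left out.

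Hba-a1, Hbb-bs and Hbb-bt took a larger part of the 3'-LEXO libraries than of the Trad-KAPA libraries. Hbb-bt was 16.1-fold higher in 3'-LEXO, a log2 difference of 4.01 (SE 0.08, edgeR with mouse as a block, adjusted p = 1.36e-16), and 13.8 to 19.8 times higher within single mice. Hba-a1 was higher by 3.10 (SE 0.13, edgeR adjusted p = 3.62e-13), with 5.21 to 12.7 times within mice, and Hbb-bs by 2.61 (SE 0.07, edgeR adjusted p = 1.19e-15), with 5.16 to 6.58 times. The lowest of the Hba-a1 ratios was that of control mouse 2. In all 3 genes the 3'-LEXO value was higher in 6 of 6 mice, but 83.2% of the genes tested differed between the kits at this threshold and 42% were higher in 3'-LEXO. Alas2 differed by 0.31 (SE 0.14, edgeR adjusted p = 0.0499) and was higher in 3'-LEXO in 4 of 6 mice, and its call was lost in 9 of the 10 alternative fits of this comparison.

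**Figure D4:**
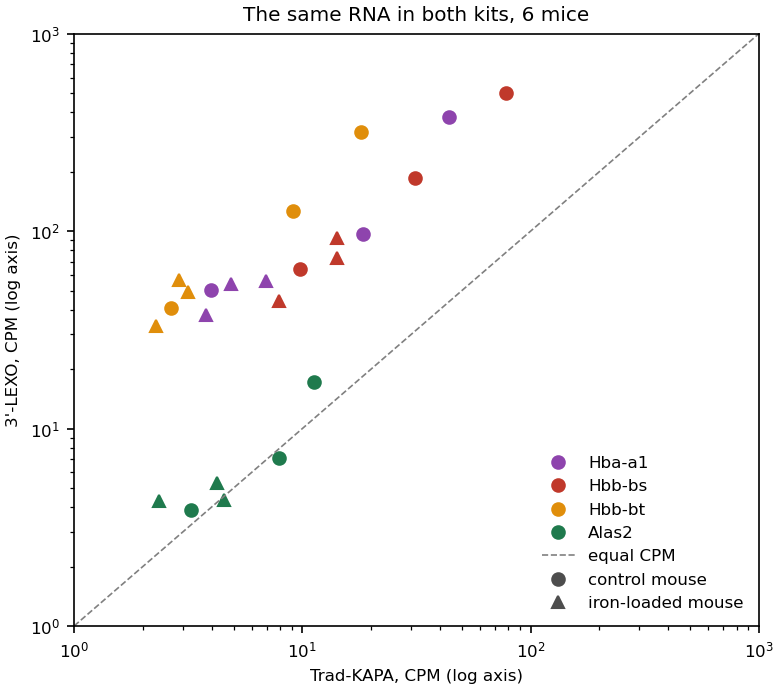
CPM of 4 members in Trad-KAPA (x axis) and 3'-LEXO (y axis), both log axes, with 1 point per mouse, circles for control and triangles for iron-loaded mice, and a dashed line at equal CPM. The globins lie above the line in 6 of 6 mice, Hbb-bt farthest, and Alas2 lies along it.

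The diet difference was not shown to depend on the kit. In the interaction of diet and kit, the 3'-LEXO log2 fold change minus that of Trad-KAPA was 0.25 (SE 1.07) for Hba-a1, -0.13 (SE 1.01) for Hbb-bs, 0.02 (SE 0.86) for Hbb-bt and -0.02 (SE 0.76) for Alas2. By edgeR's quasi-likelihood test 0 of 4 members and 0% of 14384 genes were called, with 0 members and 402 genes at an unadjusted p below 0.05. This fit does not use that both kits read the same mice. With mouse as a replicate block the values were 0.29 (SE 0.24), -0.12 (SE 0.14), 0.09 (SE 0.18) and 0.10 (SE 0.29), edgeR adjusted p 0.855 to 0.971, and 0 of 4 members and 5 of 14384 genes were called.

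The ratio of alpha to beta reads varied less between mice than the levels did. Alpha reads were 0.425 ± 0.0556 (SD, n = 3) per beta read in the control mice and 0.352 ± 0.0613 in the iron-loaded mice in Trad-KAPA. The 3'-LEXO ratios were 0.428 ± 0.106 and 0.437 ± 0.0631. The diets differed by -0.28 and 0.05 on the log2 scale (exact permutation test of 3 against 3 mice, two-sided, p = 0.3 and 0.9, smallest possible p 0.1), and the kits by 0.15 over 6 mice (exact sign-flip permutation test, p = 0.375). While the level of Hba-a1 ranged 11.0-fold among the control mice, the ratio of alpha to beta reads stayed between 0.361 and 0.458 in their Trad-KAPA libraries. The lowest ratio in 3'-LEXO, 0.310, was that of control mouse 2.

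Of the beta reads, Hbb-bt took 20.9 ± 1.92% (SD, n = 3) in the control mice and 19.1 ± 2.89% in the iron-loaded mice in Trad-KAPA. In 3'-LEXO its share was 39.3 ± 0.798% and 40.3 ± 2.25%. The diets differed in this share by -1.80 percentage points in Trad-KAPA and 0.94 in 3'-LEXO (exact permutation test, p = 0.4 and 0.7). It was 19.8 percentage points higher in 3'-LEXO over the 6 mice and higher in each of them (permutation test with exact sign flips, p = 0.0313, the smallest p that 6 mice allow, and 0.188 after adjustment over the 12 ratios and shares compared). The share of Hba-a1 among alpha reads was 98.0 ± 4.35% (SD, n = 6 mice) in Trad-KAPA and 98.8 ± 2.37% in 3'-LEXO. Here the tests of diet (exact permutation test, p = 1 with Trad-KAPA counts, 0.3 with 3'-LEXO counts) and of kit (exact sign-flip permutation test, p = 0.5625) found no difference beyond its spread. In control mouse 1 Hba-a2 took 8 of 74 alpha reads in Trad-KAPA, 10.8% (Wilson 95% interval 5.58% to 19.9%), and 45 of 751 in 3'-LEXO, 5.99% (4.51% to 7.92%). In no other 3'-LEXO library did it take more than 0.517%, the share of control mouse 2 (0.251% to 1.06%), and the Trad-KAPA counts of 0 allow shares of up to 0.494% to 5.66%. These intervals cover counting error only.

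The ratio of Alas2 to the globins varied between mice. In Trad-KAPA there were 194, 134 and 80.6 Alas2 reads per 1000 globin reads in control mice 1, 2 and 3 and 168, 193 and 186 in the iron-loaded mice. In 3'-LEXO there were 24.4, 17.3 and 14.5 against 37.3, 26.2 and 24.5. In both kits the ratio was lowest in control mouse 3 and next lowest in control mouse 2, the mice with the most globin reads, which are its denominator. The diets differed by 0.51 on the log2 scale in Trad-KAPA (exact permutation test, p = 0.4) and by 0.66 in 3'-LEXO, where every iron-loaded mouse was above every control mouse (exact permutation test, p = 0.1, the smallest possible, and 0.4 after adjustment over 12). Between the kits the ratio was lower in 3'-LEXO in each of the 6 mice, by a mean of 2.73 on the log2 scale (permutation test with exact sign flips, p = 0.0313, adjusted p = 0.188).

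Other genes of red cells and of heme were read from lists drawn up for these data. In the list of heme synthesis and erythroid iron handling, which holds Alas2 itself, 4 of 16 genes fell in Trad-KAPA and 0 rose. Among all genes tested there, 8.37% fell. The median log2 fold change of the list was -0.17 against 0.016 over all genes. In 3'-LEXO 0 of 16 passed in edgeR (4 at an unadjusted p below 0.05, and 0 in DESeq2). Of all genes in 3'-LEXO, 6.1% passed in edgeR and 25% had an unadjusted p below 0.05. The 4 that fell in Trad-KAPA were Ppox, which oxidizes protoporphyrinogen, at -1.02 (edgeR adjusted p = 0.00426), Uros, the uroporphyrinogen III synthase, at -0.98 (adjusted p = 0.00426), Alad, the second enzyme of the path, at -0.58 (adjusted p = 0.0311), and Tmem14c, a mitochondrial porphyrin carrier, at -0.35 (adjusted p = 0.0443). In 3'-LEXO their values were -0.54, -0.78, -0.45 and -0.32. Both Ppox and Uros work in every cell that makes heme, hepatocytes included. The Trad-KAPA calls of Alad and Tmem14c held in 8 and 4 of 13 alternatives and were lost, among others, without control mouse 2 (edgeR adjusted p = 0.101 and 0.0808) or control mouse 3 (0.0897 and 0.108), and those of Ppox and Uros held in 13 of 13 alternatives.

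Alas1, the form of the enzyme that liver uses, rose in both kits, by 1.41 on the log2 scale (edgeR adjusted p = 0.0139) in Trad-KAPA and by 1.56 (edgeR adjusted p = 0.00556) in 3'-LEXO. It was the 1 gene of the 10 in the hepatocyte list that passed in either kit. Its direction was thus opposite to the values of Alas2, which did not pass.

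Of the genes of the red cell membrane and skeleton, 8 of 20 could be tested in Trad-KAPA and 9 in 3'-LEXO. Slc4a1, the anion exchanger band 3, had 29, 152 and 35 counts in the control mice and 8, 4 and 10 in the iron-loaded mice in Trad-KAPA and fell by 3.26 (SE 0.76, edgeR adjusted p = 0.0250). In 3'-LEXO it had 16, 66 and 22 counts against 0, 3 and 9 and a value of -2.82 (edgeR adjusted p = 0.0719). The groups did not overlap in either kit, and control mouse 2, not control mouse 3, was the highest. Without control mouse 2 the values were -2.11 (edgeR adjusted p = 0.0422) and -2.0 (adjusted p = 0.225).

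Xk, which is bound to the Kell protein in the red cell membrane, fell in 3'-LEXO by 1.31 (edgeR adjusted p = 0.0108), a call lost without control mouse 3 (adjusted p = 0.0550), and was -0.99 (adjusted p = 0.0586) in Trad-KAPA. Aqp1, a water channel that liver endothelium also makes, rose in Trad-KAPA by 0.54 (edgeR adjusted p = 0.0298), a call lost without control mouse 2 or control mouse 3 (adjusted p = 0.0618 and 0.0728), and was 0.29 (adjusted p = 0.290) in 3'-LEXO. Epb41 was 0.55 in both kits (edgeR adjusted p = 0.0985 and 0.194). Over the list 1 gene rose and 1 fell in Trad-KAPA, and 0 rose and 1 fell in 3'-LEXO. Of all genes tested, 1154 rose and 1101 fell of 13151, and 422 rose and 389 fell of 13301. The list medians were 0.083 and 0.026. The summed list (20 genes) ranged from 288 to 374 CPM in the control mice and from 422 to 576 in the iron-loaded mice in Trad-KAPA. In 3'-LEXO the ranges were 411 to 480 and 540 to 594. Such a sum follows the genes with the most reads, and the values of Slc4a1 and Xk went the other way in both kits.

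Car1, the carbonic anhydrase abundant in red cells, fell in both kits. It had 49, 55 and 54 counts in the control mice and 1, 12 and 4 in the iron-loaded mice in Trad-KAPA, a log2 fold change of -3.18 (SE 0.52, edgeR adjusted p = 0.00847). In 3'-LEXO it had 56, 59 and 79 counts against 6, 11 and 15, a value of -2.35 (SE 0.38, edgeR adjusted p = 0.00963). The control mice were alike, unlike in the globins, and the diets did not overlap. The call held in 13 of 13 alternatives in Trad-KAPA and in 12 of 13 in 3'-LEXO, the exception being the fit without control mouse 3 (edgeR adjusted p = 0.0513). Of the other red cell enzymes and maturation genes, Blvrb, which reduces biliverdin, rose in Trad-KAPA by 0.46 (edgeR adjusted p = 0.0307), a call lost without control mouse 2 or control mouse 3 (adjusted p = 0.0580 and 0.0856), and was 0.36 in 3'-LEXO (adjusted p = 0.123). Car2 was 0.69 and 0.54 and Acp5 -0.32 and -0.28, below the threshold in both kits, and 11 of 13 genes tested in Trad-KAPA and 12 of 13 in 3'-LEXO did not pass.

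The erythroid transcription factors and the erythropoietin receptor gave 0 calls among the 10 genes tested in each kit by edgeR, and 0 by DESeq2. At an unadjusted p below 0.05 there were 3 for Trad-KAPA but 0 for 3'-LEXO, against 34.3% and 25% of all genes tested. The smallest adjusted p-values in Trad-KAPA were those of Epor, at a log2 fold change of 0.57 (edgeR adjusted p = 0.0729), Ldb1 at 0.36 (adjusted p = 0.0829), Nfe2 at 1.28 (adjusted p = 0.104) and E2f2 at -0.42 (adjusted p = 0.307). Gata1, which was looked up after its values were seen, had 1, 7 and 1 counts in the control mice and 0 in each iron-loaded mouse in Trad-KAPA. Only control mouse 2 was thus above the floor of 3 counts, and Gata1 did not pass the filter of the edgeR fit. Its 3'-LEXO counts are not given here.

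Control mouse 2 had the most reads of 2 other genes of the erythroid line, which were picked out after their values were seen. Hemgn had 5, 22 and 0 counts in control mice 1, 2 and 3 with Trad-KAPA and 8, 36 and 3 with 3'-LEXO, and Rhd had 2, 14 and 1 with Trad-KAPA and 2, 41 and 1 with 3'-LEXO. The globins and Alas2, by contrast, peaked in control mouse 3. In both kits, then, the mouse with the most globin reads was not the mouse with the most reads of these genes. The counts are low, and no test was made of this difference. Slc4a1 was also highest in control mouse 2, whereas Car1 was highest in control mouse 3 in 3'-LEXO. Where the other genes of the lists peaked was not counted.

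**Figure D5:**
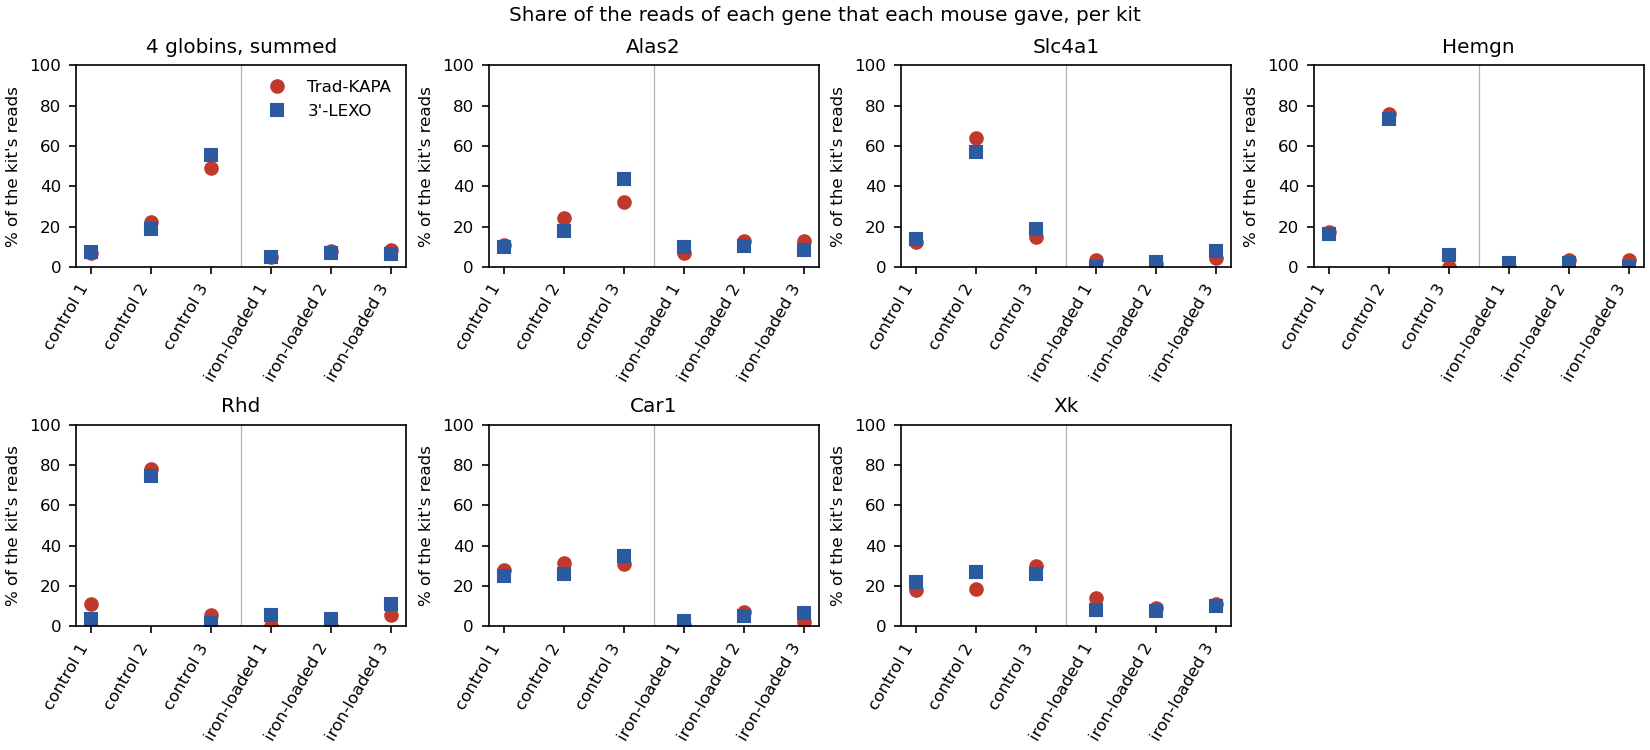
Each panel shows, for the summed globins or 1 gene, the percentage of all reads of that gene in a kit that came from each of the 6 mice, with Trad-KAPA as red circles and 3'-LEXO as blue squares. The globins and Alas2 are highest in control mouse 3, Slc4a1, Hemgn and Rhd in control mouse 2, and Car1 is spread evenly over the control mice, with 49 to 55 counts each in Trad-KAPA. Hemgn and Rhd were picked after their values were seen.

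Of the other globin genes, Hba-x, Hbq1a, Hbq1b and the myoglobin gene Mb had at most 2 counts in a library, and Cygb, the globin of liver stellate cells, was the only one that could be tested. It had log2 fold changes of 0.22 (edgeR adjusted p = 0.411) and 0.46 (adjusted p = 0.0707). Of the genes that take up and clear hemoglobin and heme, 4 of 10 rose in Trad-KAPA, where 1154 of 13151 genes rose, and 1 of 10 in 3'-LEXO, where 422 of 13301 did, and 0 fell. Over the alternatives 2 to 6 rose in Trad-KAPA and 0 to 2 in 3'-LEXO. Slc40a1, the iron exporter ferroportin, rose in both kits, by 0.89 (edgeR adjusted p = 0.00541) and 0.68 (adjusted p = 0.0411). Hmox1, which breaks down heme, rose in Trad-KAPA by 1.43 (edgeR adjusted p = 0.00579) and was 0.89 (adjusted p = 0.130) in 3'-LEXO, Hpx, the heme carrier of plasma, rose by 0.63 (adjusted p = 0.0359) and was 0.55 (adjusted p = 0.141), and Blvrb is given above. The 3'-LEXO call of Slc40a1 was lost without control mouse 2 or control mouse 3 (edgeR adjusted p = 0.113 and 0.138), and the Trad-KAPA call of Hpx likewise (adjusted p = 0.0911 and 0.0780).

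Markers of other blood cells were read beside these results. The summed platelet list (10 genes) ranged from 16.6 to 22.0 CPM in the control mice and from 21.3 to 33.6 in the iron-loaded mice in Trad-KAPA, with medians of 25.6 and 36.2 in 3'-LEXO. The platelet gene Pf4 had 3 to 11 counts per library in Trad-KAPA. Clec1b of this list rose in both kits, by 0.61 and 0.67 (edgeR adjusted p = 0.0286 and 0.0425), calls that held in 8 and 6 of 13 alternatives and were lost without control mouse 2 (0.0905 and 0.0953) or control mouse 3 (0.0798 and 0.141). No other gene of the list passed, and 3 of the 5 tested in 3'-LEXO had values below 0, with a list median of -0.035. Whether the Clec1b reads came from platelets was not tested. The lymphocyte list (10 genes) ranged from 7.01 to 13.4 CPM and 7.28 to 10.7 in Trad-KAPA, and none of the genes tested passed in edgeR or DESeq2, or at an unadjusted p below 0.05, in either kit. The neutrophil list (11 genes) ranged from 1.95 to 4.59 CPM in the control mice and from 5.43 to 11.9 in the iron-loaded mice in Trad-KAPA, and from 8.93 to 21.1 and 29.2 to 66.7 in 3'-LEXO. Its genes S100a9 and S100a8 rose in both kits, by 2.48 and 1.51 in Trad-KAPA (edgeR adjusted p = 0.00847 and 0.0336) and by 1.79 and 1.75 in 3'-LEXO (adjusted p = 0.0143 and 0.0282), and the neutrophil surface gene Ly6g had 0 counts in 10 of 12 libraries. Without control mouse 2 or control mouse 3 the calls of S100a8 in both kits (edgeR adjusted p = 0.0918 to 0.109) and of S100a9 in 3'-LEXO (0.0631 and 0.0723) were lost. The part of these blood cells in the results for the hemoglobin genes was not tested. Of the 8 Kupffer cell genes, 2 rose in Trad-KAPA and 1 in 3'-LEXO, where 1154 of 13151 and 422 of 13301 of all genes tested rose. Marco, a scavenger receptor, rose by 3.10 and 2.82 (edgeR adjusted p = 0.00143 and 0.00233). Of the 8 sinusoidal endothelial genes, 2 rose in Trad-KAPA, and 1 rose and 2 fell in 3'-LEXO, where 389 of 13301 genes fell.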

How the data were processed

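The deposited table holds raw counts of reads mapped uniquely to exons for 27022 Ensembl genes in 12 libraries; the authors aligned single-end reads of 50 bases to GRCm38 with STAR 2.5.3a, and the counting program, annotation and strand setting are not given in the sources used here. Unique mapping drops reads that fit both genes of a globin pair, so the counts cover only part of each globin transcript. Totals were 10724672 to 16553616 counts.

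The members and gene lists were chosen with earlier results of these data known. CPM were computed from library totals. Diet was tested within each kit, kit with mouse as a block, and their interaction over 12 libraries, by edgeR 4.0.16 (R 4.3.3, TMM, filterByExpr, quasi-likelihood F test, Benjamini-Hochberg over all genes tested, 0.05), checked on simulated counts; DESeq2 1.42.0 was an alternative. Ratios and shares were compared by exact two-sided permutation tests (scipy 1.17.1). From each list, up to 4 genes with the smallest adjusted p in the Trad-KAPA diet fit are named, plus those passing in both kits; others are said to have been picked later. Of the identifiers, 26940 were in GENCODE M21, which gave positions and transcripts.

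The labels make the same number in both kits the same mouse, and the deviations of same-numbered libraries correlated at r = 0.448 to 0.791 over 9311 genes. They do not tell iron-loaded mice 2 and 3 apart: Trad-KAPA mouse 2 had r = 0.624 with 3'-LEXO mouse 3 and 0.548 with its own number. Libraries of a group differed by 6.46 to 66.1 chi-square units per degree of freedom, so none held the same reads as another. The lowest values, 6.46 in Trad-KAPA and 6.47 in 3'-LEXO, were those of iron-loaded mice 2 and 3. This measure cannot tell 2 mice from 2 libraries of the same RNA. The alternatives were other scalings, no expression filter, the replicate block, 10 M counts per library and each mouse left out.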

Additional observations from a re-analysis of the deposited data

Results flagged for a closer look

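The share of Hba-a1 among alpha globin reads was higher in 3'-LEXO than in Trad-KAPA by 4.82 percentage points in control mouse 1, which lay far from the other 5 mice. Its gap to the nearest mouse was 0.740 of the whole range, past Dixon's 95% critical value for 6 samples. It was 1 of 8 sets of values checked in this way, and chance alone sets apart about 1 in 20. The Trad-KAPA share of this mouse rests on 74 alpha reads.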

How the results depend on the processing

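The count of members called for diet was 0 of 4 in both kits. In Trad-KAPA it became 4 with no expression filter (all genes: 2866 of 24470), 4 with the replicate block (1922 of 13151) and 1 at 10 M counts per library (2076 of 12607). In 3'-LEXO it became 1 with DESeq2 (1321 of 23487) and 5 with no expression filter (2040 of 23491). DESeq2 and the fits with no expression filter held 5 members, the others 4. Leaving out each mouse gave 0 to 4 in Trad-KAPA and 0 to 2 in 3'-LEXO, highest without control mouse 1. The replicate numbers do not pair mice across diets, and in 3'-LEXO the replicate block gave 0. The cause of these changes was not tested. In the interaction, Alas2 was 0.10 with the replicate block (mouse), and leaving out each mouse gave -0.22 to 0.36 for Alas2 and -0.096 to 0.25 for Hbb-bt. It gave -0.17 to 0.19 for the log2 alpha to beta ratio between diets in 3'-LEXO, -0.344 to 5.06 percentage points for the Hba-a1 share between diets in Trad-KAPA, -0.00966 to 1.06 for that share between the kits, and -0.233 to 2.01 for the Hbb-bt share between diets in 3'-LEXO. With 5 mice the exact test cannot pass the threshold: the kits then differed by 19.4 to 20.2 points in the Hbb-bt share and by -2.85 to -2.68 in the log2 ratio of Alas2 to the globins. The lowest r between the kits without the 2 farthest mice was 0.757. Over all genes, the 811 calls for diet in 3'-LEXO became 1321 with DESeq2, 2040 with no expression filter, 436 with the replicate block and 199 to 871 without a mouse, and the 2255 in Trad-KAPA became 841 to 2803 without a mouse. Library totals without TMM moved the Trad-KAPA split from 1154 higher and 1101 lower to 1339 and 838. Low counts of Hba-a2 and Alas2 limit what these libraries can show.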

Other observations

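Genes were ranked by how closely their level over the 6 mice followed the mean of the 4 globins, by the lower of Pearson's r in the 2 kits, among 11009 genes. These values describe 6 mice that share their libraries and diets. The first 10 genes that are not members were Zap70, Slc22a30, Gm36435, Sc5d, Nit2, Mgst1, Car8, Gm47789, Pgrmc2 and Cyp4f14, with a lower r of 0.978 to 0.959. After centring on diet as well, Zap70 had r = 0.949 (Trad-KAPA) and 0.957 (3'-LEXO). The members themselves ranked 152 (Hbb-bs), 234 (Hbb-bt), 266 (Hba-a1) and 690 (Alas2). Hba-a2, near 0 in most libraries, entered the mean with the same weight as the other 3 globins.

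With Hba-a2 left out of the mean, a choice made after seeing the data, Alas2 ranked 4, behind the 3 globins that made up the mean, with r = 0.973 (Trad-KAPA) and 0.980 (3'-LEXO), and 0.957 and 0.981 after centring on diet. The next were Ergic1, Col27a1 and Trim2, and the first 10 genes of the rankings shared 0 names.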
